A study of Drosophila melanogaster with 15 samples.

Results

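The comparison described here set ventral lateral neurons (LNvs) of per0 larvae against those of wild-type larvae at zeitgeber time (ZT) 15. It used 6 of the 15 arrays of the series, chosen by their titles, with 3 biological replicates per genotype. The LNvs are the pacemaker neurons of the larval brain, of which there are 8 per brain, and they make the neuropeptide Pigment-dispersing factor (Pdf). In a cycle of 12 h light and 12 h dark, ZT15 lies in the early night.

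The per0 larvae were yw, per0 with a Pdf-RFP reporter, and the wild-type larvae were yw with Pdf-Gal4 driving UAS-GFP. Pdf-RFP and Pdf-Gal4 both act through the Pdf promoter, so the sort depended on cells that make Pdf. All larvae were at the L3 stage and were raised at 25 °C. The reporter differed together with the genotype, and the part of each in a difference cannot be told apart. As further context, cyc0 LNvs at ZT15 (yw, Pdf-RFP, cyc0), wild-type LNvs at ZT3 (with the same transgenes as at ZT15) and neurons labelled through elav-Gal4 with UAS-GFP at ZT15 had 3 arrays each. The tissue label of the elav arrays reads LNvs, yet Pdf was at 3.06, 3.57 and 4.49 on them, and they were taken as elav neurons from title and genotype. The sorting protocol speaks of RFP-positive cells throughout, also for the genotypes that carried GFP.

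In the fly clock, CLOCK (Clk) and CYCLE (cyc) form a dimer that switches on period (per), timeless (tim), vrille (vri), Par domain protein 1 (Pdp1) and clockwork orange (cwo). PER and TIM proteins accumulate at night, enter the nucleus and inhibit the dimer, which closes the loop. The per0 allele is a nonsense mutation that removes functional PER protein, so that the inhibitor is missing, while in cyc0 the activator is missing. In both mutants the molecular rhythm is lost.

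Values are deposited log2 signals, on which 1 unit is a doubling. Signals below background gather at the low end of the scale, so log2 4 was used as a working level, and a probe set was tested if at least 3 of the 15 arrays reached it. This left 5829 probe sets for 4721 genes. On the per0 arrays 4282, 3694 and 5436 probe sets reached log2 4, and on the wild-type arrays at ZT15 4194, 3830 and 4098. The third per0 array thus had the most probe sets above that level. Mean correlations between the arrays of a group were 0.89 to 0.91 in per0 and 0.79 to 0.82 in wild type at ZT15. Wild-type replicate 1 correlated at 0.81 on average with the per0 arrays and at 0.79 with its own group.

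Pdf, the marker of the sorted cells, was high in both genotypes. It stood at 13.07, 12.93 and 13.05 on the per0 arrays, against 12.61, 12.41 and 12.48 in wild type. The per0 arrays were a little higher without overlap, and the difference of 0.52 ± 0.48 (SE) did not pass (adjusted p = 0.62). The summed linear signal of 6 neuronal markers was 769 to 2412 in per0 and 1072 to 1850 in wild type. Markers of muscle (2 genes, none at the working level on any of the 6 arrays), fat body (1 of 2) and photoreceptors (2 of 3) were at or near the floor. So were those of hemocytes (1 of 5), apart from Ppn, which was at 6.13 on per0 replicate 3. The hemocyte markers summed to 35.1 to 90 in per0 and 28.9 to 36.6 in wild type, which overlapped. The fat body markers summed to 13.2 to 24.3 in per0 and 10.7 to 12.5 in wild type. The photoreceptor markers summed to 15.4 to 24.3 in per0 and 26.7 to 39.1 in wild type.

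At an adjusted p below 0.05, 69 of 5829 probe sets differed between per0 and wild-type LNvs, which is 1.18%. In per0, 27 probe sets were higher (0.463%) and 42 lower (0.721%). They stand for 62 named genes, with 6 probe sets that had no single symbol. The p-values come from a linear model over all 15 arrays (limma, moderated by empirical Bayes) with Benjamini-Hochberg adjustment over all tested probe sets, and "called" below means past that threshold. The arrays of the 2 genotypes did not overlap for any of the 69, as for 23.4% of all tested probe sets. Over all tested probe sets the median difference was 0.24, and it was 0.06 after each array was centred on its median and 0.04 after quantile normalization, so small differences have to be read against that shift.

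The number of calls depended on single arrays, from 25 without per0 replicate 3 to 142 without wild-type replicate 1. It was 45 without per0 replicate 1, 30 without per0 replicate 2, 26 without wild-type replicate 2 and 27 without wild-type replicate 3. Of the 69 calls, 15 held whichever of 7 arrays was left out (each of the 6, or cyc0 replicate 3). Those 15 were Hrb87F, Capa, ppk20, Cyp4p2, Plp and ome, which were higher in per0, and NFAT, bun, Con, CG33232, hoe1, CG14879, CG10089, CG18265 and Mct1, which were lower. The other 54 calls were each lost in at least 1 of these fits. In all of these fits the tested probe sets stayed those chosen on all 15 arrays. Capa, ppk20, Mct1 and CG10089 reached log2 4 on only 3 arrays. With 1 of those left out they would not have met the filter, so their holding depends on that choice.

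The RNA-binding protein gene Hrb87F had the largest increase. It encodes an hnRNP of the A type, a class of nuclear proteins that bind pre-mRNA and act in splicing. Its signal was 11.14, 11.07 and 11.37 in per0 LNvs against 6.09, 6.15 and 4.19 in wild type at ZT15. All per0 arrays were near the top of the scale and all wild-type arrays far below. The difference was 5.72 ± 0.61 on the log2 scale, a 52.7-fold higher signal (adjusted p = 9.84e-05). Levels of the same size as in per0 were found in cyc0 LNvs (11.09, 10.91 and 11.11) and in elav neurons (11.69, 12.01 and 11.63). Wild-type LNvs at ZT3 had 4.18, 5.99 and 6.26, close to wild type at ZT15.

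Other genes for RNA-binding proteins moved less. Of 24 tested hnRNP and SR protein genes, 2 were called higher and none lower, 11 had an unadjusted p below 0.05, and 18 had a positive difference. Over all 4721 genes, 1.27% were called, 768 had an unadjusted p below 0.05 (16.5% of all probe sets did) and 2912 had a positive difference. The median of the RNA-binding list was 0.52, beside 0.28 over all genes. The second call was Syp, a Syncrip-type RNA-binding protein that acts in temporal patterning of neural stem cells and neurons. Syp had 5.41, 5.92 and 6.0 on the per0 arrays against 2.80, 2.82 and 3.40 in wild type, so it reached the working level on the per0 arrays alone of these 6. It was at least 3.43-fold higher (adjusted p = 0.0296), where "at least" sets the per0 mean against log2 4 because no wild-type array reached it. Another Syp probe set, with values near the floor in both genotypes, differed by 0.06. Imp, whose product acts opposite to Syp in temporal patterning, had 6.37, 5.38 and 6.32 in per0 compared with 9.19, 6.75 and 8.19 in wild type. Its arrays did not overlap, and the difference of -2.02 ± 0.58 did not pass (adjusted p = 0.106).

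**Figure D1:**
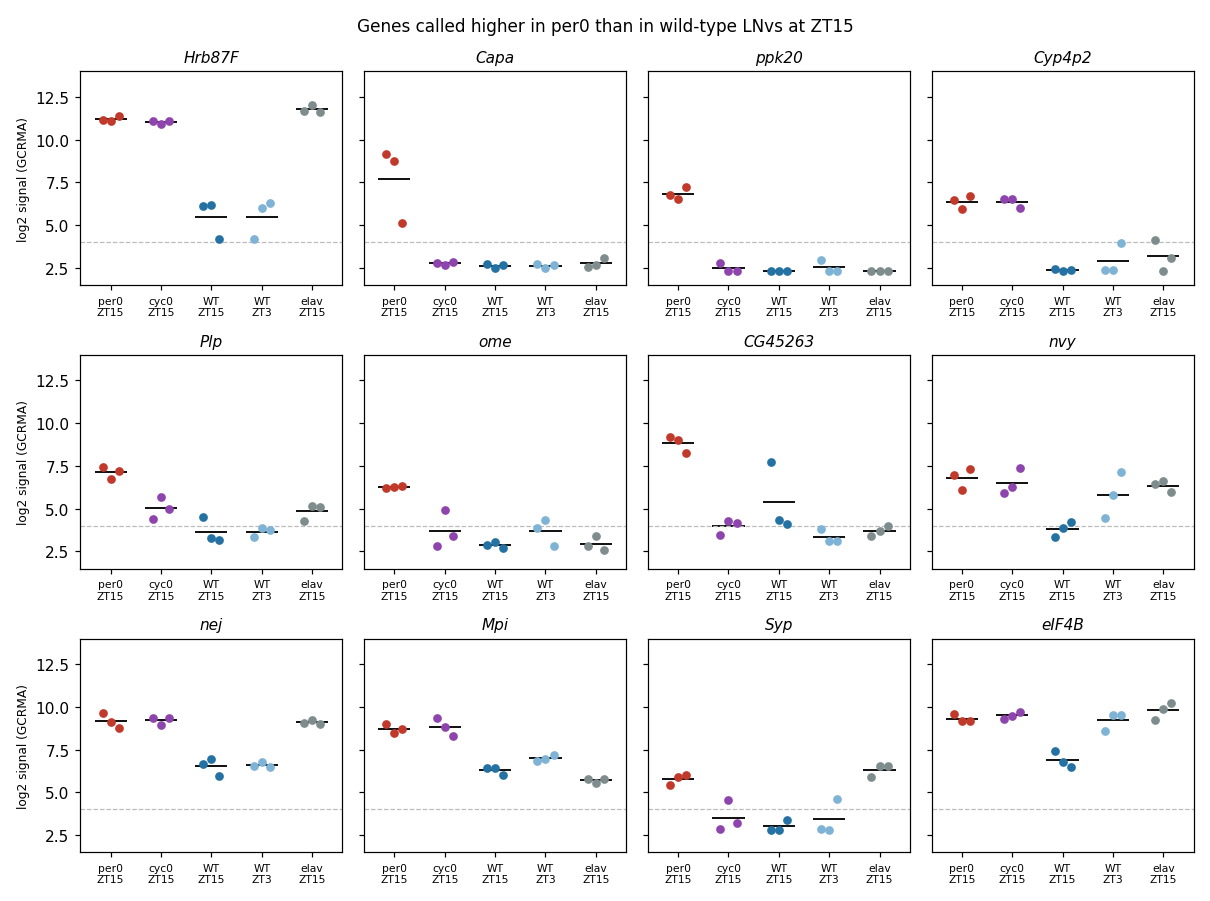
Log2 signal on each array (points) and group means (lines) for 12 genes called higher in per0 than in wild type at ZT15, by group from per0 on the left to elav neurons on the right, with the working level of log2 4 dashed. Hrb87F, Cyp4p2, nej and Mpi were about as high in cyc0 as in per0. Every per0 array of Capa, ppk20, ome, CG45263 and Plp was above all arrays of the other 4 groups.

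A group of 4 called genes was higher in per0 than in cyc0 as well as in wild type. Over all tested probe sets, 46 differed between per0 and cyc0 (0.789%), and of the 69 called against wild type 4 did, all among the 27 that were higher. Capa encodes a precursor of periviscerokinins and a pyrokinin, peptides known for hormonal signalling from neurons of the ventral nerve cord. Its signal was 9.14, 8.74 and 5.14 in per0 LNvs against 2.70, 2.46 and 2.67 in wild type. The third per0 array was much lower than the others of its group, yet above each of the other 12 arrays, where Capa lay between 2.46 and 3.06. Capa was at least 12.8-fold higher than in wild type (adjusted p = 0.00403), and the difference from cyc0 was 4.90 (adjusted p = 0.00188). It reached log2 4 on the per0 arrays alone and so passed the filter only through the group where it was high. Its p-values are therefore not independent of the filter.

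The pickpocket gene ppk20, of the DEG/ENaC family of sodium channels, gave 6.77, 6.52 and 7.21 in per0 and 2.34 on each wild-type array. Every per0 array stood far above the wild-type arrays, and on the 9 arrays of the other groups ppk20 lay between 2.34 and 2.94. It was at least 7.13-fold higher than in wild type (adjusted p = 6.81e-05), with a difference from cyc0 of 4.35 (adjusted p = 5.46e-05). Like Capa, ppk20 passed the filter only through the per0 arrays, so its p-values are not independent of the filter. Of 37 pickpocket and TRP channel genes on the array 3 could be tested, and ppk20 was the single one called. The omega gene (ome), for a dipeptidyl peptidase, had 6.20, 6.28 and 6.34 on the per0 arrays against 2.85, 3.06 and 2.73 in wild type. The 3 per0 values of ome were close to each other, and it was at least 4.84-fold higher than in wild type (adjusted p = 0.0066). Its difference from cyc0 was 2.57 (adjusted p = 0.0436). Outside per0, ome reached log2 4 only on replicate 2 of wild type at ZT3 (4.36) and replicate 2 of cyc0 (4.9). It too needed the per0 arrays to pass the filter, so its p-values are not independent of the filter. A further 3 probe sets of ome lay at the floor in both genotypes and were not tested.

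CG45263 had 9.22, 9.01 and 8.28 in per0 compared with 7.75, 4.33 and 4.10 in wild type. Wild-type replicate 1 stood close to per0 and the others near the working level, so that the spread in wild type was large (SD 2.04). The difference was 3.44 ± 0.74 (adjusted p = 0.0319), and from cyc0 it was 4.87 (adjusted p = 0.00188). A second tested probe set of CG45263 gave 7.11, 4.61 and 6.71 in per0 LNvs against 3.86, 4.62 and 4.85 in wild type, with overlapping arrays (1.70, adjusted p = 0.205). The called probe set of this gene carries the suffix s, with which the array maker marks probes that match several transcripts. The suffix s or x is carried by 9 of the 69 called probe sets, among them those of ERp44, sxc, Diap2, hoe1 and CG10089.

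Further increases concerned genes of varied roles. Cyp4p2, a cytochrome P450 gene, had 6.44, 5.93 and 6.68 on the per0 arrays against 2.4, 2.33 and 2.39 in wild type. It was above the working level on every per0 array and at the floor on every wild-type array, at least 5.10-fold higher (adjusted p = 0.00326). In cyc0 it was 6.55, 6.52 and 5.98, and the difference between per0 and cyc0 was 0.00. Its neighbour in the genome and close paralog Cyp4p1 had 6.08, 3.62 and 5.67 in per0 compared with 2.35, 2.37 and 2.33 in wild type, a difference just short of the threshold (2.77 ± 0.67, adjusted p = 0.0509). Of 17 tested genes of the Cyp, Gst and Ugt families, Cyp4p2 was the single one called.

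Plp, which encodes a pericentrin-like protein of the centrosome, had 7.46, 6.75 and 7.21 in per0 LNvs against 4.52, 3.26 and 3.17 in wild type (3.49 ± 0.54, adjusted p = 0.00544). In cyc0 Plp was 4.4, 5.69 and 5, below every per0 array, but the difference of 2.1 between per0 and cyc0 did not pass (adjusted p = 0.0937). The transcriptional co-repressor gene nvy had 6.96, 6.08 and 7.34 on the per0 arrays against 3.37, 3.85 and 4.20 in wild type (2.99 ± 0.65, adjusted p = 0.0325). Neither gene overlapped between the genotypes, which held for 23.4% of all tested probe sets. The co-activator gene nej, the fly CBP, had 9.63, 9.10 and 8.79 in per0 and 6.68, 6.96 and 5.97 in wild type. The increase of nej was 6.22-fold (adjusted p = 0.00977), and cyc0 LNvs had 9.34, 8.96 and 9.33. A second nej probe set near the floor differed by -0.63, so the probe sets of nej did not move alike.

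The initiation factor gene eIF4B had 9.56, 9.18 and 9.15 in per0 and 7.44, 6.75 and 6.51 in wild type (2.4 ± 0.49, adjusted p = 0.0241). A further eIF4B probe set gave 2.14 (adjusted p = 0.0954) and a pair of dimmer ones -0.81 and -0.18. ERp44, for a chaperone-like protein of the endoplasmic reticulum, had 8.07, 7.20 and 8.01 in per0 compared with 6.06, 4.28 and 4.85 in wild type (adjusted p = 0.033). Wild-type LNvs at ZT3 had eIF4B at 8.59, 9.51 and 9.52, and ERp44 at 7.07, 6.67 and 6.14, so wild type at ZT15 was the lowest LNv group for both genes. The same held for Manf, a secreted factor of the endoplasmic reticulum that supports dopamine neurons, with 8.87, 8.70 and 8.92 in per0, 6.86, 6.06 and 6.16 in wild type at ZT15 and 7.92, 8.71 and 9.11 at ZT3. Manf was called at an adjusted p of 0.0364. It lies outside the naming rule and was taken up after the values were seen.

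The remaining named increases lay between 2.31 and 2.72 on the log2 scale. Also outside the naming rule, and picked after their values were seen for what their products do, are tsr, sxc, Mpi and Diap2. The cofilin gene tsr had 11.62, 11.47 and 11.44 in per0 LNvs against 8.91, 9.41 and 8.41 in wild type (adjusted p = 0.0495). The O-GlcNAc transferase gene sxc had 9.19, 8.95 and 8.64 on the per0 arrays against 6.24, 5.98 and 6.82 in wild type (adjusted p = 0.0425). None of these 4 genes had overlapping arrays, which held for 23.4% of all tested probe sets. Mpi, for a mannose phosphate isomerase, had 8.97, 8.47 and 8.70 in per0 compared with 6.45, 6.45 and 6.04 in wild type (adjusted p = 0.0169). Diap2, for an inhibitor of apoptosis, had 7.05, 6.05 and 7.31 in per0 LNvs against 5.35, 3.94 and 3.88 in wild type (adjusted p = 0.0402). Of the RNA polymerase II subunit gene Polr2J, per0 had 7.95, 9.09 and 7.85 and wild type 6.0, 4.35 and 6.65 (adjusted p = 0.0358).

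Among the decreases, the peptide gene Ilp7 had the largest fitted difference. Ilp7 encodes an insulin-like peptide of the relaxin type. Its signal was 2.69, 4.30 and 2.4 on the per0 arrays against 8.95, 7.93 and 6.99 in wild type. A pair of per0 arrays lay at the floor and the other just above the working level, so the size of the difference, -4.82 ± 0.87, is uncertain (adjusted p = 0.0107). In cyc0 Ilp7 was 2.85, 6.61 and 2.70, with 1 high array, and in wild type at ZT3 6.91, 8.31 and 8.18. Capa and Ilp7 were the called members of 9 tested neuropeptide precursors, 1 in each direction. The uncalled peptide gene with the smallest p was Nplp1, with 10.53, 9.54 and 9.37 in per0 compared with 6.89, 7.32 and 7.18 in wild type (2.69 ± 0.79, adjusted p = 0.111).

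Of the monoamine genes, 1 of 4 tested fell. Tbh, the tyramine beta-hydroxylase that makes octopamine, had 7.70, 4.23 and 6.01 in per0 LNvs against 7.97, 9.99 and 10.49 in wild type. The highest per0 array came close to the lowest wild-type array, and the difference was -3.51 ± 0.76 (adjusted p = 0.033). Vmat, the vesicular monoamine transporter, had 2.49, 4.13 and 2.53 on the per0 arrays against 10.46, 4.26 and 8.02 in wild type. Wild-type replicate 2 lay beside the per0 arrays, and the difference did not pass (-4.53 ± 1.19, adjusted p = 0.0742). All 4 tested members of the monoamine list had negative differences with a median of -1.89, and 1 of them was called. Ddc, the dopa decarboxylase, differed by -0.09. In samples of sorted cells pooled from many brains, fewer cells of a type and less RNA per cell cannot be told apart.

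**Figure D2:**
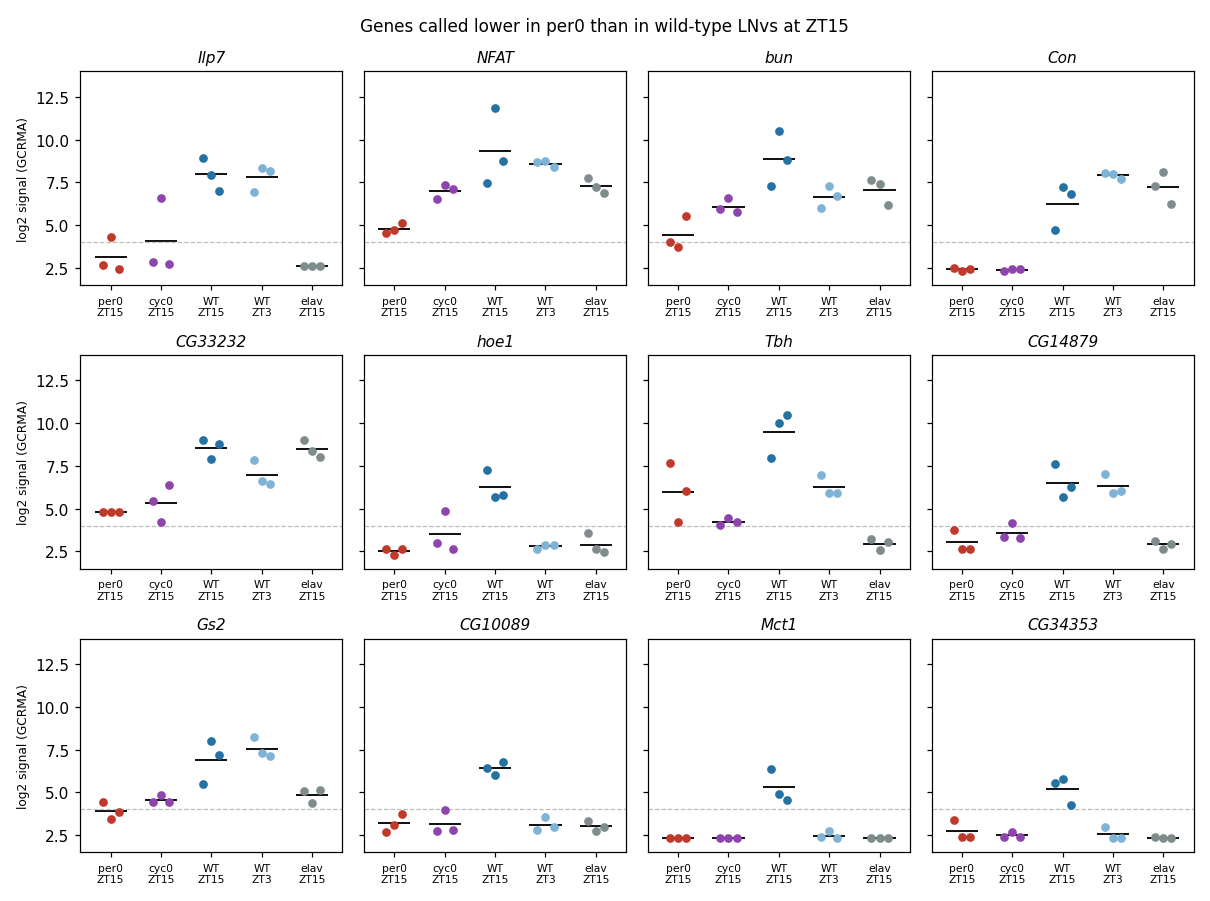
Log2 signal on each array (points) and group means (lines) for 12 genes called lower in per0 than in wild type at ZT15, with the working level of log2 4 dashed. Con, CG14879 and Gs2 were high in wild type at both times and low in both mutants, whereas hoe1, CG10089, Mct1 and CG34353 (its dimmer called probe set) were highest in wild type at ZT15, with 1 cyc0 array of hoe1 at 4.87.

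A pair of transcription factor genes fell. NFAT, whose vertebrate relatives are switched on by calcineurin when calcium rises, had 4.51, 4.70 and 5.12 in per0 compared with 7.48, 11.87 and 8.72 in wild type. Wild-type replicate 2 was by far the highest, but the lowest wild-type array was still above every per0 array. The difference was -4.58 ± 0.78 (adjusted p = 0.0066). In cyc0 NFAT was between, at 6.54, 7.35 and 7.08. The TSC22-family gene bun had 4.01, 3.71 and 5.54 in per0 LNvs against 7.28, 10.48 and 8.83 in wild type (-4.44 ± 0.74, adjusted p = 0.0065). Its highest wild-type array was again replicate 2. Of 12 tested genes of calcium, calcineurin and NFAT signalling, NFAT was the single one called, and 6 differences were positive and 6 negative.

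Of 46 tested members of the adhesion list 2 were called, both lower, while 23 differences were positive and 23 negative. An unadjusted p below 0.05 was found for 13 of them. Over all 4721 genes, 1.27% were called, 768 had an unadjusted p below 0.05 and 2912 a positive difference. Con (Connectin), a leucine-rich repeat adhesion protein known from motor axon targeting, had 2.46, 2.32 and 2.42 on the per0 arrays against 4.73, 7.21 and 6.8 in wild type. The per0 arrays were at the floor, and Con was at least 4.74-fold lower (adjusted p = 0.00628). It was at the floor in cyc0 too (2.31, 2.41 and 2.43), and high in wild type at ZT3 (8.05, 8.00 and 7.68). Neuroglian (Nrg), an L1-type adhesion protein, had 4.78, 5.23 and 4.98 in per0 compared with 7.94, 7.45 and 7.16 in wild type (-2.52 ± 0.58, adjusted p = 0.0415). Further probe sets of Nrg gave -0.63 and -0.11, so its probe sets disagreed.

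Adhesion genes just short of the threshold included hig and CadN, which were lower in per0, and unc-5, which was higher. The synaptic matrix protein gene hig had 6.44, 3.15 and 5.58 in per0 LNvs against 8.58, 7.43 and 8.06 in wild type (adjusted p = 0.0572). CadN, the neuronal cadherin, had 4.49, 3.85 and 4.56 on the per0 arrays against 8.12, 6.8 and 6.22 in wild type (adjusted p = 0.0792). The gene unc-5 had 7.45, 7.32 and 7.35 in per0 and 5.54, 5.2 and 5.14 in wild type (2.08 ± 0.55, adjusted p = 0.0761). None of these genes overlapped between the genotypes, which held for 23.4% of all tested probe sets. Of the Dpr and DIP proteins, immunoglobulin-type partners in synapse matching, none of 14 tested was called, 5 had an unadjusted p below 0.05 and 10 had negative differences (median -0.44). Of these, dpr9 had 7.70, 5.64 and 6.82 in per0 and 8.47, 10.64 and 9.87 in wild type (adjusted p = 0.0784).

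AnxB9, an annexin that binds membranes in the presence of calcium, had 3.75, 3.12 and 5.67 in per0 compared with 8.58, 8.32 and 7.36 in wild type (-3.91 ± 0.89, adjusted p = 0.0399). A pair of further AnxB9 probe sets fell short of the threshold, with -1.56 and -1.27. The DJ-1 family gene dj-1beta, known for protection against oxidative stress, had 6.51, 4.52 and 5.10 in per0 LNvs against 10.34, 8.85 and 8.86 in wild type (adjusted p = 0.0196). For both genes the highest per0 array lay well below the lowest wild-type array.

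Genes known by a CG number made up 20 of the genes called lower and 6 of those called higher. CG33232 had 4.81 on each per0 array, against 9.03, 7.90 and 8.77 in wild type (-3.76 ± 0.59, adjusted p = 0.00619). CG9344 fell while staying above the working level, with 7.51, 6.20 and 7.92 in per0 and 11.11, 9.41 and 12.07 in wild type (adjusted p = 0.0402). CG7607 had 3.23, 3.38 and 2.72 on the per0 arrays against 5.46, 7.49 and 7.0 in wild type, and was at least 6.29-fold lower (adjusted p = 0.0154). CG7607 stood at 2.58, 3.30 and 2.58 in cyc0 and at 7.90, 6.93 and 8.31 in wild type at ZT3, so both mutants were low and wild type was high at both times.

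A further set of genes was high in wild type at ZT15 and lower in the other 3 LNv groups. It was picked out after the values were seen and is given as a description. The gene hoe1 had 2.67, 2.31 and 2.65 in per0 compared with 7.24, 5.71 and 5.78 in wild type at ZT15 and 2.66, 2.85 and 2.87 at ZT3. CG10089 had 2.71, 3.10 and 3.75 in per0 LNvs against 6.43, 6.02 and 6.8 in wild type at ZT15 and 2.81, 3.57 and 2.95 at ZT3. Mct1, for a monocarboxylate transporter, had 2.33, 2.34 and 2.34 on the per0 arrays against 6.39, 4.91 and 4.56 in wild type at ZT15 and 2.37, 2.73 and 2.32 at ZT3. These 3 genes were at least 4.73-fold (hoe1), 5.34-fold (CG10089) and 2.44-fold (Mct1) lower in per0, with adjusted p-values of 0.0065, 0.00619 and 0.0066. Both called probe sets of CG34353 showed the same order, and on the brighter one per0 had 6.01, 3.50 and 5.03, against 8.02, 7.15 and 7.79 in wild type at ZT15 and 5.00, 3.65 and 3.86 at ZT3 (adjusted p = 0.033). Mct1, CG10089 and the dimmer called probe set of CG34353 reached log2 4 on the wild-type arrays at ZT15 alone. Elsewhere hoe1 reached it only on cyc0 replicate 2 (4.87). All of these, hoe1 included, passed the filter only through the group where they were high, so their p-values are not independent of the filter. The difference between per0 and wild type at ZT15 and that between the times share the wild-type arrays at ZT15.

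The glutamine synthetase gene Gs2, a glial marker that converts glutamate to glutamine, was lower in per0. Its values were 4.41, 3.46 and 3.85 in per0 and 5.51, 8.01 and 7.18 in wild type (-3.0 ± 0.60, adjusted p = 0.0225). The summed linear signal of the 6 glial markers was 69.1 to 111 in per0 and 144 to 320 in wild type, without overlap. Without Gs2 the sums were 47.9 to 99.8 in per0 and 62.1 to 116 in wild type, which overlapped. Of 9 tested genes of the longer glial list, Gs2 was called lower and none higher, and 4 had positive and 5 negative differences. The gene of that list with the next smallest p, Indy, was higher in per0, at 6.57, 4.64 and 7.06 against 3.84, 3.9 and 2.81. Its arrays did not overlap, and the difference of 2.57 ± 0.70 did not pass (adjusted p = 0.0839). The glial determinant gene repo was near the floor, at 2.44, 2.88 and 2.83 in per0 and 2.92, 3.18 and 2.83 in wild type.

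No difference was called in the clock loop at this time. None of the 5 CLK/CYC targets was called by limma, none had an unadjusted p below 0.05, and their median difference was 0.00, or -0.18 after centring and 0.11 after quantile normalization. The gene tim had 11.08, 10.84 and 10.76 in per0 and 11.09, 10.84 and 10.75 in wild type. The difference of tim was 0.00 ± 0.55 (adjusted p = 0.999), and a second tim probe set gave 0.57 (adjusted p = 0.721). The transcript of per, whose protein is lost in per0, was 8.11, 5.40 and 7.61 in per0 and 6.11, 6.92 and 8.69 in wild type (-0.20 ± 0.70, adjusted p = 0.913). A nonsense allele leaves the transcript measurable, so the per signal does not check the genotype labels.

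The other targets overlapped between the genotypes as well. The repressor gene vri had 11.53, 11.42 and 11.22 in per0 and 11.69, 11.17 and 11.32 in wild type. Pdp1, an activator of Clk, had 10.95, 10.90 and 9.88 in per0 and 10.92, 10.21 and 10.29 in wild type. The repressor gene cwo varied more, with 7.0, 6.24 and 7.58 in per0 and 4.75, 7.85 and 9.14 in wild type, where replicate 1 was far below the others. A second cwo probe set differed by -2.88 (adjusted p = 0.193), and there too wild-type replicate 1 was the low array of its group. With a median SE of 0.66 per probe set, small differences were not detectable with these arrays.

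Against cyc0, where the activator is missing, per0 was higher for 4 of these 5 genes. The differences were 7.91 for tim (adjusted p = 2.25e-07), 5.02 for Pdp1 (adjusted p = 0.000761), 3.75 for per (adjusted p = 0.0134) and 2.57 for vri (adjusted p = 0.0307). For cwo the difference of 1.47 did not pass (adjusted p = 0.651). In cyc0 tim lay at 2.88, 2.85 and 3.21, at the floor as in wild type at ZT3 (3.04, 3.06 and 2.81).

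Among the other clock factors, the CLOCK inhibitor gene Cipc had the largest difference. Cipc was 8.28, 6.21 and 7.12 in per0 compared with 10.27, 9.80 and 10.46 in wild type. All per0 arrays were below all wild-type arrays, but the difference did not pass (-2.97 ± 0.77, adjusted p = 0.0686). It did pass after centring and after quantile normalization. In cyc0 Cipc was 5.54, 5.23 and 6.31. The blue-light receptor gene cry had 8.92, 6.13 and 8.08 in per0 and 4.87, 6.31 and 7.45 in wild type (adjusted p = 0.449). The activator gene cyc had 5.47, 3.69 and 5.52 in per0 and 4.82, 7.63 and 6.61 in wild type (adjusted p = 0.311). Clk and Shaw did not reach the filter and were not tested, and none of 8 tested clock kinases, phosphatases and ubiquitin ligases was called or had an unadjusted p below 0.05.

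**Figure D3:**
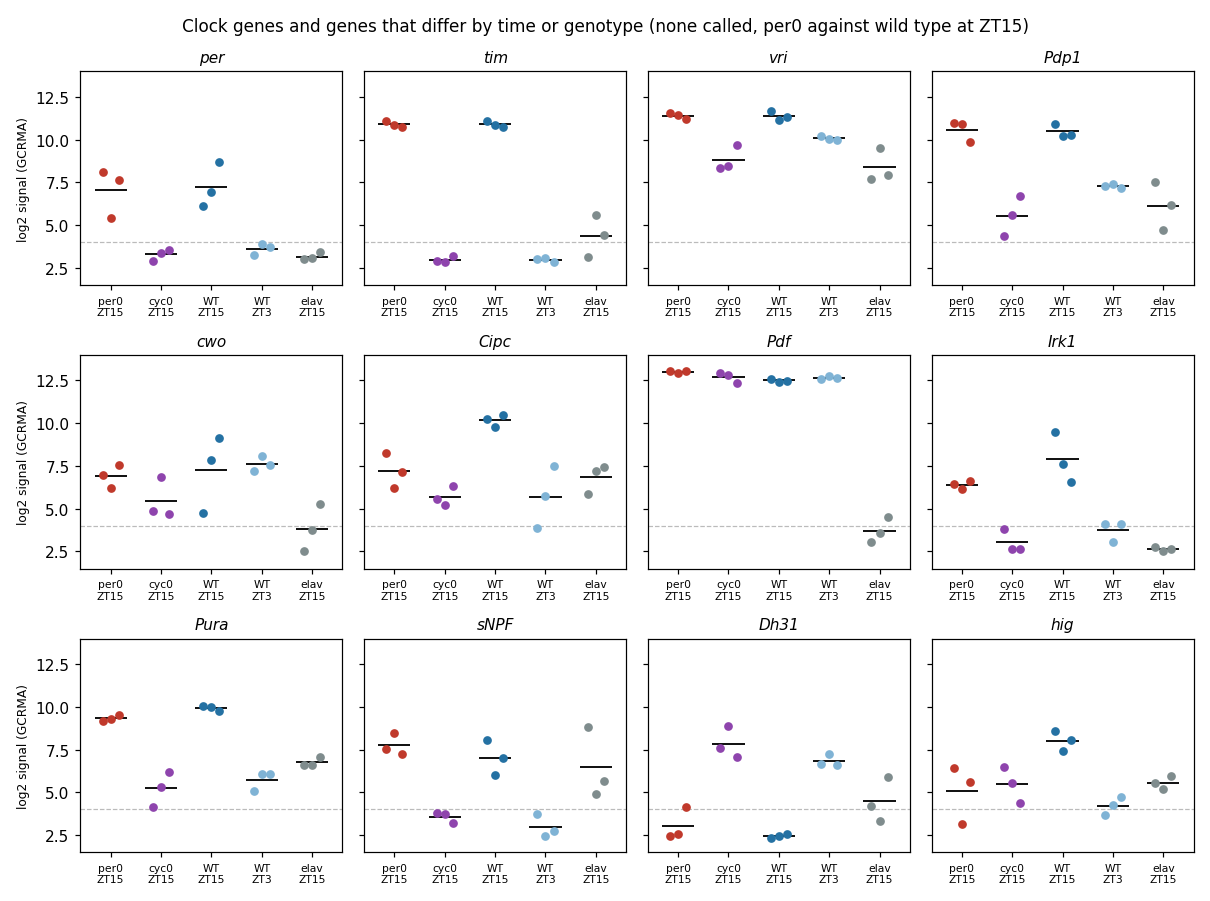
Log2 signal on each array (points) and group means (lines) for 12 clock genes and genes that differ by time or genotype, by group, with the working level of log2 4 dashed. None was called between per0 and wild type at ZT15, and tim, vri, Pdp1 and Pura were close to wild type at ZT15 in per0 and lower in cyc0.

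A list held 17 genes, tim, per, Pdp1 and Cipc among them, that were named earlier from these same samples as differing between the times in wild type, so the list is not independent of the data. None of the 17 was called between per0 and wild type at ZT15, and 4 had an unadjusted p below 0.05. The difference was positive for 7 and negative for 10, with a median of -0.09. The gene Pura had 9.19, 9.27 and 9.54 in per0 and 10.07, 9.98 and 9.78 in wild type, against 4.15, 5.34 and 6.19 in cyc0. Per0 was slightly below wild type without overlap (-0.61 ± 0.54, adjusted p = 0.607), and it was 4.11 above cyc0 (adjusted p = 0.000723).

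The inward rectifier potassium channel gene Irk1 had 6.42, 6.15 and 6.62 in per0 and 9.50, 7.59 and 6.58 in wild type. The wild-type arrays were widely spread, with the lowest inside the per0 range (-1.49 ± 0.65, adjusted p = 0.263). In cyc0 Irk1 was 3.84, 2.63 and 2.64, and per0 was 3.36 higher (adjusted p = 0.0163). A pair of neuropeptide genes stood close to wild type at ZT15 in per0 and at other levels in cyc0. The peptide gene sNPF had 7.53, 8.45 and 7.25 in per0 and 8.06, 6.01 and 7.02 in wild type, against 3.80, 3.73 and 3.20 in cyc0. Dh31, a calcitonin-like peptide gene, had 2.43, 2.57 and 4.13 in per0 and 2.31, 2.45 and 2.55 in wild type, against 7.62, 8.86 and 7.06 in cyc0. The difference between per0 and cyc0 was 4.17 for sNPF (adjusted p = 0.0176) and -4.80 for Dh31 (adjusted p = 0.000856).

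The called genes were also set beside cyc0. Cyc0 at ZT15 was compared with wild type at ZT3, a contrast chosen after seeing the data, since its difference uses none of the 6 arrays behind the per0 minus wild-type difference, although all 15 arrays entered the filter and the estimate of spread. In it 88 probe sets were called (1.51%). Of the 27 probe sets higher in per0, 25 were positive there (92.6%), with a median of 1.04, and 3 were called higher. Of the 42 lower in per0, 35 were negative there (83.3%), with a median of -1.59, and 13 were called lower. Of all tested probe sets 54.8% were positive and 45.2% negative, with a median of 0.11.

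With any 1 of the cyc0 or ZT3 arrays left out, the counts were 24 to 27 of the 27 and 35 to 37 of the 42, and after centring they were 23 and 37. Cyc0 and per0 differ from both wild-type groups in the reporter as well as in a clock allele, so reporter, strain background and the loss of rhythm cannot be told apart in this pattern. The contrast also sets ZT15 against ZT3. The 2 increases that were not positive in cyc0 against ZT3 were ppk20 (-0.06) and Manf (-0.08). Called in both contrasts upward were Hrb87F (5.56 in cyc0 minus ZT3), Cyp4p2 (3.44) and nej (2.62), and the largest common decreases were Con (-5.53), AnxB9 (-5.21) and CG7607 (-4.90).

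**Figure D4:**
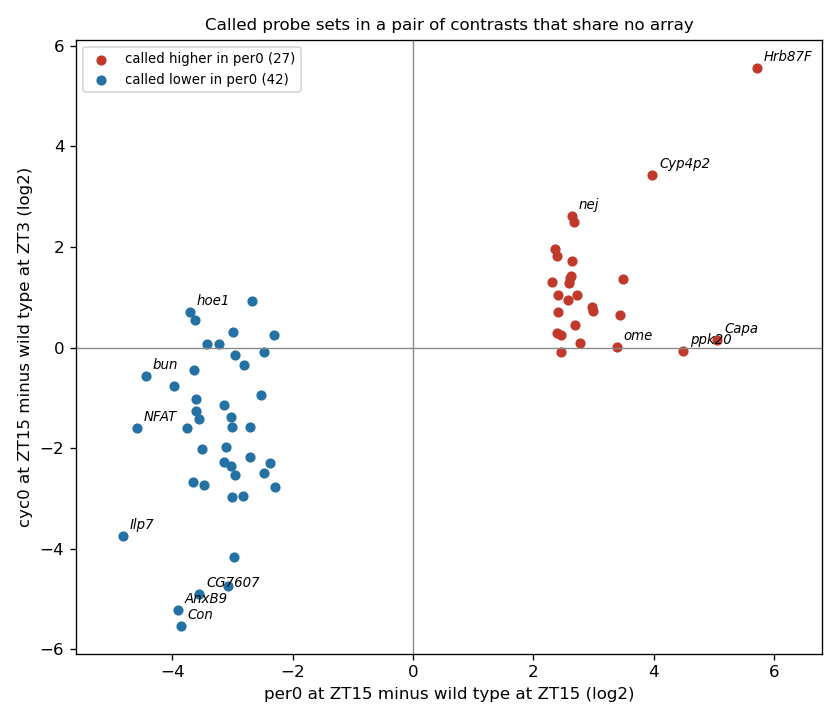
Each point is 1 of the 69 probe sets called between per0 and wild type at ZT15, with that log2 difference on the horizontal axis and cyc0 at ZT15 minus wild type at ZT3 on the vertical axis. The calls were chosen on the horizontal axis, 25 of 27 increases lie above the horizontal zero line and 35 of 42 decreases below it, and Capa, ppk20 and ome lie at about 0 vertically.

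Gene lists of cell function are given by their counts and medians, beside 0.28 for all 4721 genes, with limma calls. Of those genes 768 had an unadjusted p below 0.05 and 2912 a positive difference, and a list whose share is near that background shows nothing of its own. Of 26 translation initiation factors 1 was called, eIF4B, 9 had an unadjusted p below 0.05 and 20 were positive (median 0.36). Among the uncalled, eIF3a had 8.43, 8.34 and 8.59 in per0 and 6.97, 6.38 and 6.94 in wild type (adjusted p = 0.0838). Proteasome subunits, which degrade tagged proteins, were positive for 22 of 25 with a median of 0.50, none was called and 4 had an unadjusted p below 0.05. Heat-shock and chaperone genes were positive for 8 of 10 with a median of 0.78, none was called and 2 had an unadjusted p below 0.05. Of these, Hsp26 had 11.89, 11.58 and 11.95 in per0 and 10.30, 9.76 and 9.73 in wild type (1.88 ± 0.47, adjusted p = 0.0572). Hsp26 was higher on every per0 array and narrowly missed the threshold.

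Cytoplasmic ribosomal protein genes had a negative difference for 29 of 33 with a median of -0.46, none called and 5 with an unadjusted p below 0.05. Subunits of oxidative phosphorylation were negative for 33 of 50 (median -0.40), with none called and 7 below an unadjusted p of 0.05, no larger a share than over all genes. Mitochondrial ribosomal protein genes were negative for 35 of 61 (median -0.18), with none called and 7 below that level, again no larger a share than over all genes. The medians of these 3 lists stayed negative after centring and after quantile normalization. G protein-coupled receptors were negative for 11 of 12 (median -0.75), with none called and 3 below an unadjusted p of 0.05. The exception was 5-HT1A, a serotonin receptor, at 1.06.

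Transcription factors that mark neuron identity were positive for 19 of 24 (median 0.60), with none called and 5 below an unadjusted p of 0.05. The homeobox gene oc had 4.37, 6.13 and 6.61 in per0 and 2.49, 2.87 and 2.57 in wild type, with a difference just short of the threshold (3.06 ± 0.74, adjusted p = 0.0509). Cell cycle and replication genes were positive for 10 of 10 (median 0.97). None was called and 1 was below an unadjusted p of 0.05, no larger a share than over all genes. The 4 of them with the smallest p had means of at most 4.67 in per0 and 3.21 in wild type, around or below the working level. The summed linear signal of 5 neuroblast markers was 28.5 to 87.1 in per0 and 30.3 to 49.8 in wild type, which overlapped. The 4 genes for factors that act in PER translation had differences between -1.42 and 2.67, none called and 1 below an unadjusted p of 0.05, which was me31B with 8.47, 8.24 and 8.27 in per0 and 5.33, 5.18 and 6.46 in wild type (adjusted p = 0.0718).

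The other lists showed few calls. Of 15 tested genes for peptide processing, dense-core vesicles and peptidases, ome was the single one called, and 10 were positive (median 0.58). None was called of 9 potassium channels, 8 sodium, calcium and NALCN-complex channels, 13 receptors for fast transmitters, 12 genes of cAMP signalling, 12 of synaptic vesicle release or 8 pan-neuronal markers. An unadjusted p below 0.05 was found for 1, 1, 3, 3, 0 and 1 of them in that order, beside 768 of all 4721 genes. In the channel group unc80, a subunit of the NALCN leak channel complex, had 4.02, 3.66 and 3.64 in per0 and 6.09, 5.12 and 5.38 in wild type (-1.76 ± 0.49, adjusted p = 0.0915). Among 17 vacuolar ATPase subunits, 21 Rab GTPases and 10 activity-regulated genes none was called, and 1, 2 and 2 had an unadjusted p below 0.05.

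**Figure D5:**
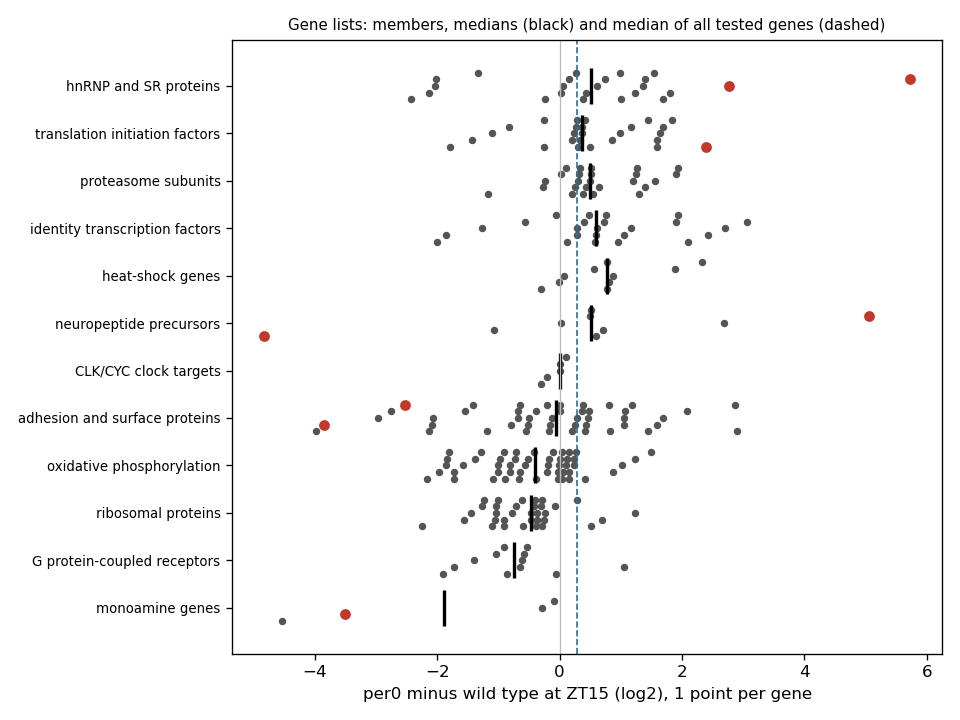
Log2 difference of per0 minus wild type at ZT15 for the tested genes of 12 lists (1 point per gene, called genes large and red), with each list's median as a black bar and the median of all 4721 genes dashed at 0.28. The list medians lie between -1.89 for the monoamine genes and 0.78 for the heat-shock genes.

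Genes beside per on the X chromosome were examined as the flank of the mutant allele. Of the 5 tested genes on either side of per in the order of the current gene table, none was called, and 1 had an unadjusted p below 0.05. That gene was wds, with 2.96, 4.84 and 5.49 in per0 and 3.22, 2.58 and 3.20 in wild type (1.43 ± 0.64, adjusted p = 0.275). The called genes Manf and CG14879, both outside the naming rule, are not among these neighbours of per. They are neighbours of each other in the same gene table and moved in opposite directions. CG14879 was at 3.76, 2.67 and 2.64 in per0 and 7.59, 5.66 and 6.25 in wild type (adjusted p = 0.0065).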

How the data were processed

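RNA of FACS-sorted cells from L3 brains was amplified and hybridised to Affymetrix arrays, per the labels' protocols. The protocol gives a digestion of 2 h and about 1000 sorted cells per sample, so a rare transcript can be lost on single arrays. The authors deposited log2 values. The submitters' processing notes name GCRMA, and its version is not given in the sources used here. The method subtracts a modelled background and normalizes between arrays, so differences against a group at the floor can be understated. The number of arrays limits the precision.

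Of 18769 probe sets other than controls, 13647 had 1 symbol, 402 several and 4720 none here, and those with 1 were named. Testing took the 5829 probe sets that reached log2 4 on 3 or more of the 15 arrays and used limma 3.58.1 (lmFit, eBayes) in R 4.3.3, with a mean per group over all 15 arrays (prior degrees of freedom 7.46) and a two-sided test. P-values were adjusted by Benjamini-Hochberg. The fit was tested on simulated data with known differences. A gene was represented by its brightest probe set in lists, and a fold was written as "at least" where the dimmer group was below log2 4 on all 3 arrays.

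The genes named were up to 15 with the largest difference in each direction among calls without overlap, a preset group of clock, peptide and marker genes, up to 4 per list with the smallest p over 45 lists, and 5 tested neighbours on either side of per. Some genes outside that rule were named as well, after their values were seen. Members and lists were chosen with earlier results of these data known. The titles' replicate numbers were not used to pair the samples. Same-numbered per0 and wild-type arrays had deviations correlated at -0.031, 0 and 0.008. These values show no shared deviation, but they cannot tell whether the samples were collected in matched rounds. The titles call the replicates biological, which is all that is known of their independence.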

Additional observations from a re-analysis of the deposited data

Results flagged for a closer look

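For 4 of the genes called higher in per0 than in wild type, the effects of the 2 mutants against the same wild-type arrays differed by the direct test of per0 against cyc0. The log2 difference of per0 minus cyc0 was 4.90 for Capa, 4.87 for CG45263, 4.35 for ppk20 and 2.57 for ome. Capa and ppk20 had passed the filter only through the per0 arrays, where they were high, and ome too needed those arrays to pass. Both mutants carried the Pdf-RFP reporter. Hrb87F, Cyp4p2 and nej, by contrast, had differences of 0.16, 0.00 and -0.04 between the mutants.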

How the results depend on the processing

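The 69 calls (27 higher, 42 lower in per0) depended on the processing. There were 40 calls with no filter (21 lower), 111 after centring (75 lower), 120 after quantile normalization (42 higher, 78 lower), 456 with array weights, a fit that did not fully converge (313 higher, 143 lower), and 6 in a fit to the 6 arrays alone (4 higher, 2 lower), where fewer arrays estimate the spread. Higher calls made up 39.1% in the fit reported, 32.4% after centring, 35% after quantile normalization and 68.6% with array weights. With single arrays left out the count ranged from 25 (without per0 replicate 3) to 142 (without wild-type replicate 1), with 7 to 56 higher and 12 to 86 lower. The tested probe sets were not chosen again in those fits. The replicate block gave 46 calls, 16 of them higher, of which 44 were among the 69, and same-numbered arrays showed no shared deviation. Apart from these causes by construction, the cause was not tested. Between per0 and cyc0 there were 46 calls, 24 with no filter and 75 after quantile normalization. All named differences that were called kept their sign in every setting, and 5 calls (Hrb87F, Cyp4p2, ppk20, ome and CG33232) held in all 17. With centring or quantile normalization 8 of the 69 were lost, among them Polr2J and Nrg. Of the uncalled genes named, oc and Cyp4p1 passed after centring and after quantile normalization, as did Cipc, hig, CadN and Vmat. Where a group lay at the floor of the signal, background limits the size of the difference.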
